A study of Mus musculus with 8 samples.

Results

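The genes of oxidative phosphorylation were examined in tumor-bearing mouse ascites as 1 module, split by respiratory complex and by the genome that encodes each subunit. Members were taken by symbol alone, as every row of the deposited table that begins with Nduf (assembly factors Ndufaf left out), Sdha, Sdhb, Sdhc or Sdhd, Uqcr, Cox4i, Cox5, Cox6, Cox7, Cox8, Atp5, mt-Nd, mt-Cytb, mt-Co or mt-Atp, without pseudogene rows. The rule gave 93 of the 23469 genes listed, 80 nuclear and 13 mitochondrially encoded. The nuclear members comprised 37 genes of complex I, 4 of complex II, 8 of complex III, 15 of complex IV and 16 of complex V, and the mitochondrial members 7 genes of complex I, 1 of complex III, 3 of complex IV and 2 of complex V.

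Oxidative phosphorylation takes place in the inner mitochondrial membrane. Complexes I and II pass electrons from NADH and succinate to ubiquinone, complex III hands them to cytochrome c, and complex IV reduces oxygen, while complexes I, III and IV pump protons whose return through complex V drives ATP synthesis. Each of complexes I, III, IV and V is a mosaic of a few subunits made inside the organelle and many made in the cytosol and imported, and each nuclear set holds conserved core or catalytic proteins surrounded by small accessory subunits. Peritoneal macrophages that live long in the cavity are known for active mitochondrial metabolism, and inflammatory activation of macrophages is known to lower respiration in favor of glycolysis.

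The study sorted macrophages by tdTomato from the bloody ascites of female Ms4a3Cre-RosaTdT mice (genotype Ms4a3TdT, strain C57BL/6, no treatment), and named the 4 tdTomato-negative libraries AeEM, embryonic derived, and the 4 tdTomato-positive libraries AeMM, monocyte derived. All mice had received ID8 cells, a mouse ovarian surface epithelial line, into the peritoneal cavity at an age of 4 to 5 weeks, and the fluid was drawn at day 65, so both groups come from tumor-bearing hosts and no tumor-free group was compared. Because the Cre is driven by Ms4a3, the label records descent from granulocyte-monocyte progenitors that expressed this gene, and any monocyte that escaped recombination falls among the AeEM. For the sequenced groups the study names 4 mice and 4 experimental runs, so an AeEM and an AeMM library may come from 1 mouse. The labels call the replicates biological but do not say which libraries share a mouse or a run, so the p-values below measure only the spread between these libraries.

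The values were log2(TPM + 1), where TPM, a transcript's share of the library, is scaled for gene length and library size. They summed to between 958860 and 974300 TPM per library, with no read counts beside them, so depth is unknown and no counting interval is given. All 7 macrophage markers passed the filter, summing to 69490 to 77571 TPM in AeEM and 70702 to 85814 TPM in AeMM. Lyz2 dominated that sum (log2 value 15.99 in AeEM replicate 1). Of the 7 markers, 3 were lower in every AeEM library than in any AeMM library, where 6.53% of all tested genes were. Csf1r (log2 difference -0.28) and Adgre1 (-0.16) were among them. In the other direction 1 marker separated, Cd68 (0.13), where 5.72% of all tested genes did. Markers of other cells differed between the groups. The 4 dendritic cell markers summed to 37.0 to 98.4 TPM in AeEM and 3.45 to 8.72 TPM in AeMM. Of them 1 (Cd209a, log2 difference 3.65) reached the filter. Flt3, Zbtb46 and Xcr1 each averaged under 1 TPM over the 8 libraries and were not tested, so the sum rests mainly on Cd209a. The 5 T and NK cell markers summed to 0.367 to 3.14 TPM against 5.35 to 15.4 TPM, 1 of them (Nkg7, at a mean of 0.637 against 7.67 TPM) reaching the filter, and Ncr1 was near 0. Of 5 neutrophil markers, Ly6g had no row in the deposited table. The other 4 summed to 10.5 to 12.7 TPM against 19.8 to 30.4 TPM. That sum was made almost wholly of S100a8 (11.3 against 24.3 TPM on average). S100a9, Camp and Ngp averaged under 1 TPM in both groups and were not tested. The 4 erythroid markers summed to 7663 to 12739 TPM in AeEM and 4207 to 10471 TPM in AeMM. B cell markers (34.3 to 84.6 against 65.2 to 76.3 TPM) and mesothelial or ovarian epithelial markers (3.70 to 6.65 against 3.93 to 6.14 TPM) overlapped. Their part in the differences below was not tested. In sorted bulk samples, fewer cells of a type and less RNA per cell cannot be told apart.

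Of the 93 members, 92 had a mean of at least 1 TPM and were tested. The exception was Cox4i2, the oxygen-sensitive isoform of cytochrome c oxidase subunit 4, whose highest log2 value over the 8 libraries was 0.15. AeEM and AeMM were compared with unpaired limma over 8801 genes, with Benjamini-Hochberg adjustment over all of them and a threshold of 0.05. At that threshold 5 of the 92 members were called, 1 higher in AeEM (1.25% of all tested genes were called higher) and 4 lower (1.16% of all tested genes were called lower), where 2.41% of all tested genes were called in either direction. The called members were Uqcrc2, higher in AeEM, and Ndufa4, Ndufb4, Cox7c and mt-Nd4, lower. In the deposited values the mean of a gene barely varies between 3 sets of libraries (replicate 1 of both groups, replicate 2 of both groups, and the 4 libraries of replicates 3 and 4), the mark of an adjustment. The unpaired fit does not count that step, so limma was also fitted with the 3 sets as a term, and its adjusted p stands beside each call. In that fit 0 members were called (0.159% of all tested genes were called). With the replicate number as a block limma also called 0 members, and the adjusted p of the 5 called members lay between 0.203 (Ndufa4) and 0.318 (Ndufb4). When limma held the 3 sets instead of the block, 19 of the 92 members had an unadjusted p under 0.05, where 9.64% of all tested genes did. In the unpaired fit an unadjusted p under 0.05 was reached by 30 members, 6 higher and 24 lower, where 8.7% and 9.33% of all tested genes reached it. The calls also depended on single libraries: limma called 0 members without replicate 1 or replicate 2 of either group, 2 without AeEM replicate 4 and 1 without AeMM replicate 4, while 5 were called without replicate 3 of either group. Ndufa4 was called in each of the latter 4 fits. Calls over all tested genes fell as well, from 2.41% to at most 0.886% without replicate 1 or replicate 2 of either group. They were 1.66% without AeEM replicate 4 and 1.49% without AeMM replicate 4. Without replicate 3 they were 2.31% (AeEM) and 2.07% (AeMM), so the loss of calls was not confined to the members.

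The differences were small and mostly negative. Among the tested members 67 had a lower mean in AeEM and 25 a higher one, and the median log2 difference was -0.13, beside -0.01 over all tested genes, of which 51.2% were negative. The nuclear median was -0.13 (58 of 79 negative) and the mitochondrial median -0.14 (9 of 13 negative). By complex, the nuclear medians were -0.17 for complex I, 0.05 for complex II, -0.16 for complex III, -0.11 for complex IV and -0.09 for complex V. The nuclear shift was uneven across the sets: the median difference was -0.23 within replicate 1, -0.33 within replicate 2 and -0.01 within replicates 3 and 4, where the median of all tested genes was -0.01, -0.14 and 0.05. In replicates 3 and 4 alone the nuclear medians of complexes III, IV and V were 0.03, 0.05 and 0.05, opposite in sign to those over all libraries.

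**Figure D1:**
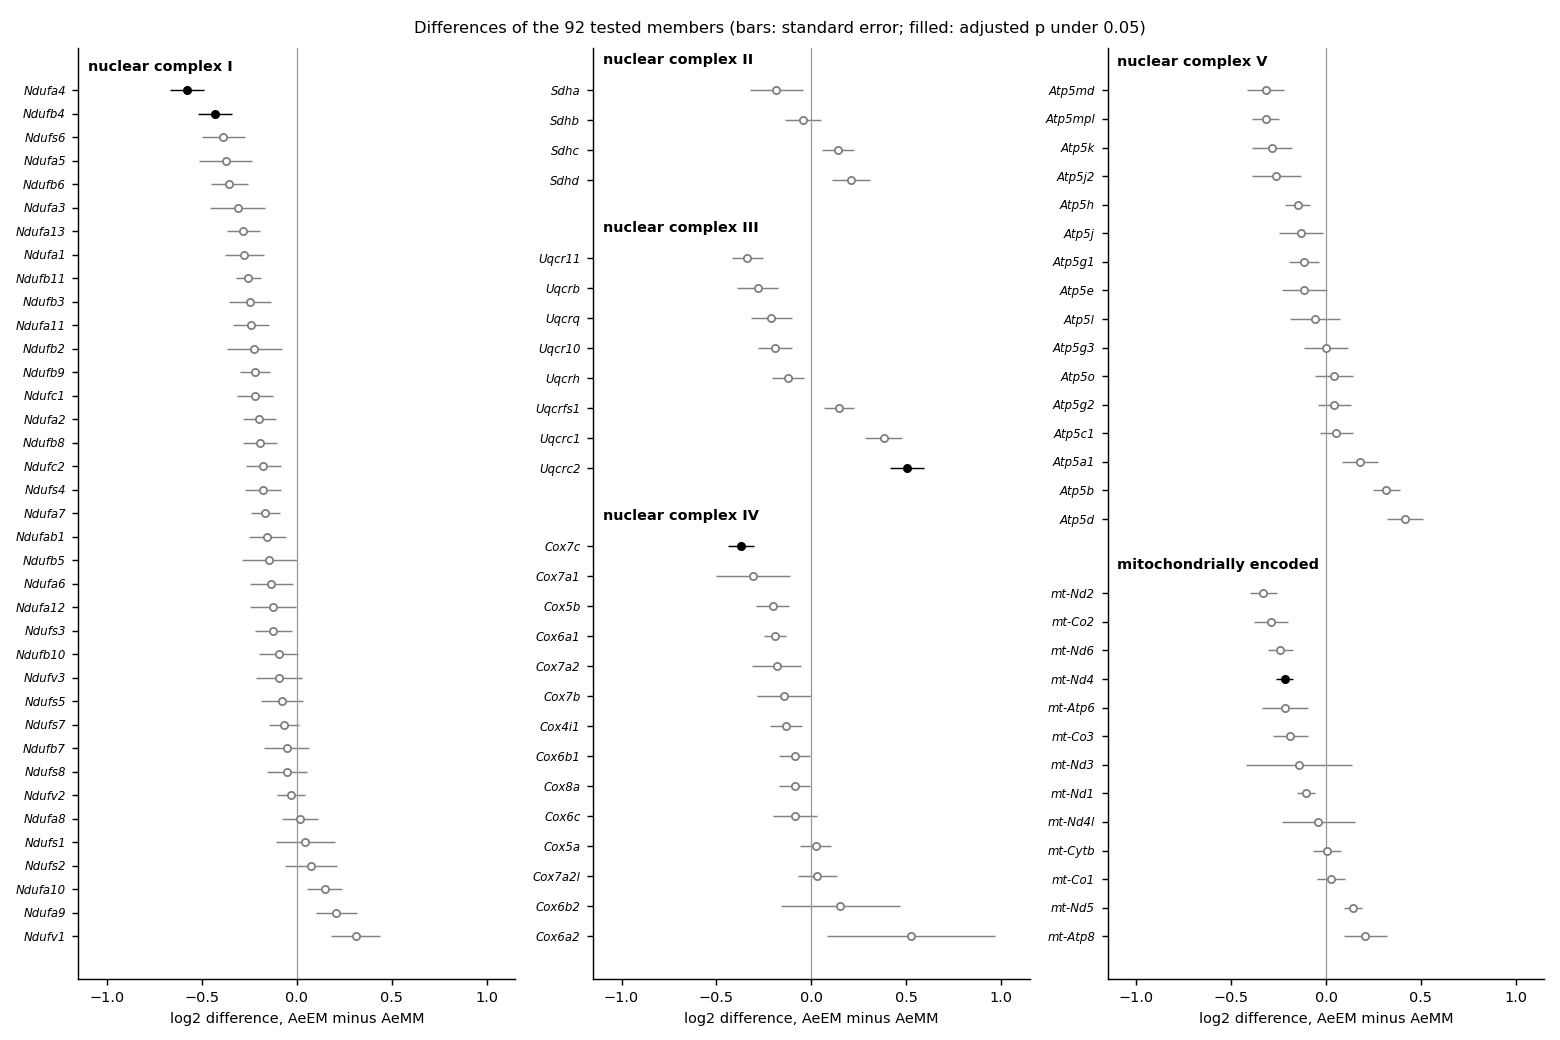
Log2 difference in mean log2(TPM + 1), AeEM minus AeMM, for each of the 92 tested members, one row per gene and grouped by complex, with bars for the standard error and filled points for an adjusted p under 0.05 in unpaired limma. Most points lie left of 0, the 5 filled points are Ndufa4, Ndufb4, Uqcrc2, Cox7c and mt-Nd4, and the core proteins of complex III and the F1 subunits Atp5d, Atp5b and Atp5a1 lie right of 0.

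Complex I, the NADH dehydrogenase, is assembled around 7 nuclear core subunits that carry the flavin and iron-sulfur clusters. Their log2 differences had a median of -0.03, and 0 of 7 were called by unpaired limma. In that fit 1 was higher at an unadjusted p under 0.05, where 8.7% of all tested genes were. The highest of them was Ndufv1, which carries the flavin and binds NADH. Its log2(TPM + 1) level was 5.46, 5.54, 5.26 and 5.70 in AeEM replicates 1 to 4 and 5.22, 5.13, 5.44 and 4.93 in AeMM. The ranges overlapped through AeEM replicate 3 and AeMM replicate 3, and the difference of 0.31 (SE 0.13) had an adjusted p of 0.249 in limma. Ndufs1, the largest iron-sulfur subunit, differed by 0.04 (SE 0.15).

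The 30 accessory subunits of complex I were lower in AeEM in 27 cases, with a median log2 difference of -0.20. Of them 2 were called lower, where 1.16% of all tested genes were. Ndufa4 had the lowest difference of all tested members. Its symbol places it with complex I, although its protein is now assigned to complex IV. Its level was 5.38, 5.38, 5.27 and 5.57 in AeEM and 6.04, 5.99, 6.07 and 5.80 in AeMM, on the log2 scale. All 4 AeEM libraries lay below all 4 AeMM libraries, a difference of -0.58 (SE 0.09), or a level 1.49-fold higher in AeMM. The adjusted p was 0.0150 by unpaired limma and 0.164 with the sets as a term. Ndufb4, a small membrane subunit at the far end of the proton-pumping arm, read 3.39, 3.37, 3.56 and 3.30 in AeEM and 3.88, 3.86, 3.83 and 3.77 in AeMM. The groups did not overlap here either, and the difference was -0.43 (SE 0.09), 1.35-fold higher in AeMM, with an adjusted p of 0.0434 by unpaired limma (0.342 when the sets entered). Both differences held the same sign in each set, -0.66, -0.62 and -0.52 for Ndufa4 and -0.50, -0.49 and -0.37 for Ndufb4.

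Both genes have relatives that could take or lend reads. In GENCODE M21 the copy Ndufb4c is identical to Ndufb4 over 390 bases, 40.2% of its longest transcript, and Gm14630 matches Ndufa4 at 93.1% over 246 bases, 40.3% of its transcript, so these levels are uncertain to the extent that reads could be split. Ndufa4 lies at chr6:11900292-11907497 and Ndufb4 at chr16:37647170-37654453, both on the minus strand of mm10. At the other end of the accessory set stood Ndufa9, a quinone-site subunit, with 3.92, 3.92, 4.20 and 3.94 in AeEM and 3.85, 3.86, 3.85 and 3.58 in AeMM. Its groups did not overlap, but they were 0.06 apart in replicates 1 and 2 and 0.36 apart in replicates 3 and 4, and the difference of 0.21 (SE 0.11) was not called (limma adjusted p = 0.358). The most abundant nuclear member of complex I, Ndufb10, averaged 216 TPM and differed by -0.10 (SE 0.10), with overlapping groups.

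Across all complexes, 19 tested members had groups that did not overlap, 6 higher in AeEM (5.72% of all tested genes separated in that direction) and 13 lower (6.53% of all tested genes). The 6 higher were Uqcrc2, Uqcrc1, Atp5d, Atp5b, Ndufa9 and mt-Nd5. The 13 lower were Ndufa4, Ndufb4, Ndufb6, Ndufb11, Ndufa13, Ndufs4, Uqcr11, Cox6a1, Cox7c, Atp5mpl, Atp5md, mt-Nd2 and mt-Nd4.

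**Figure D2:**
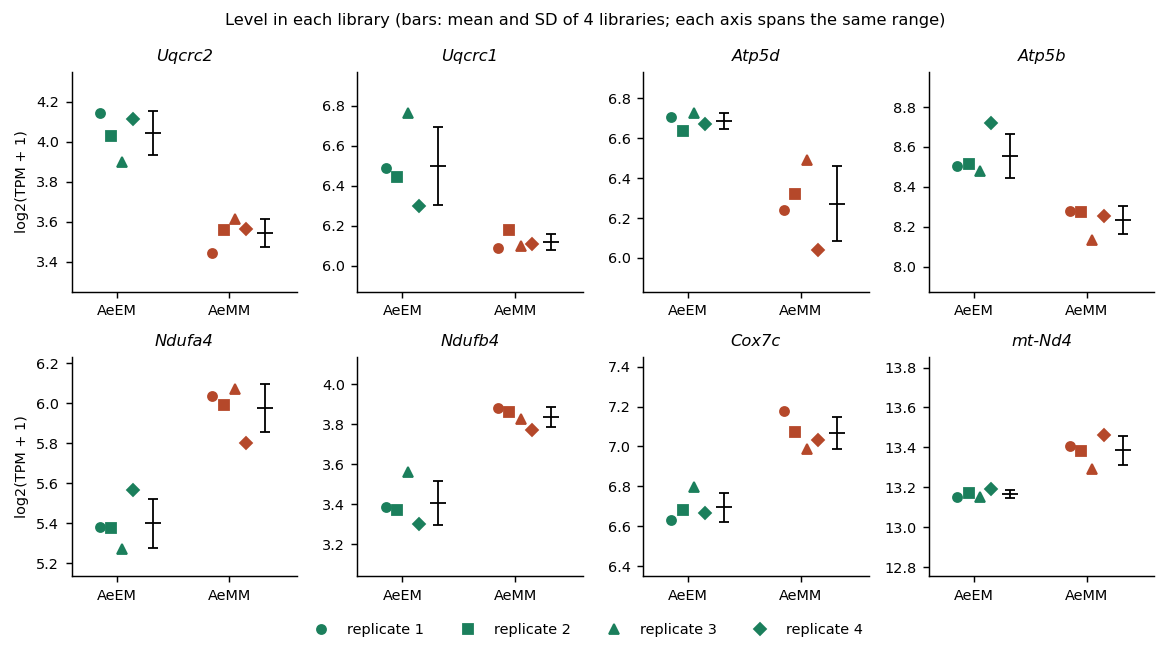
Log2(TPM + 1) of 8 members in each of the 4 AeEM (green) and 4 AeMM (red) libraries, with the replicate number as the symbol and the mean and SD of each group as bars; every axis spans the same log2 range. Uqcrc2, Uqcrc1, Atp5d and Atp5b were higher in every AeEM library than in any AeMM library, and Ndufa4, Ndufb4, Cox7c and mt-Nd4 lower.

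Complex II, succinate dehydrogenase, is the 1 complex with nuclear subunits alone, and it also serves the tricarboxylic acid cycle. None of its 4 genes was called by unpaired limma, and 0 of 4 reached an unadjusted p under 0.05, where 18% of all tested genes did. Sdhd and Sdhc, the membrane anchors, differed by 0.21 (SE 0.10) and 0.14 (SE 0.08), and Sdhb and Sdha, the iron-sulfur and flavin subunits, by -0.05 (SE 0.10) and -0.18 (SE 0.14). Sdhd read 6.35, 6.22, 6.57 and 6.28 in AeEM and 6.15, 6.27, 5.94 and 6.23 in AeMM, so that AeEM replicate 2 lay inside the AeMM range. Sdha had the wider spread in AeEM, from 4.58 in replicate 3 to 5.26 in replicate 4, against 5.01 to 5.20 in AeMM. Sdhb was the most abundant at a mean of 76.6 TPM.

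Complex III, the cytochrome bc1 complex, divided by role. Its 2 large core proteins, Uqcrc1 and Uqcrc2, which face the matrix and derive from a processing peptidase, had higher means in AeEM, as did the Rieske iron-sulfur protein Uqcrfs1, which differed by 0.14. Cyc1, the cytochrome c1 of this complex, falls outside the symbol rule and is counted below with the electron carriers. Its difference was 0.18 (SE 0.07; limma adjusted p = 0.249), with overlapping groups. Uqcrc2 was 4.14, 4.03, 3.90 and 4.11 in AeEM and 3.44, 3.56, 3.61 and 3.56 in AeMM. The groups were apart, the difference was 0.50 (SE 0.09), a 1.42-fold higher level in AeEM, and the adjusted p was 0.0254 by unpaired limma and 0.266 with the sets as a term. Uqcrc1 read 6.49, 6.44, 6.76 and 6.30 in AeEM and 6.09, 6.18, 6.10 and 6.11 in AeMM. These groups were also apart, by 0.38 (SE 0.10), but the limma adjusted p of 0.0799 missed the threshold. The difference in Uqcrc2 was 0.70, 0.47 and 0.42 in the 3 sets and that in Uqcrc1 was 0.40, 0.27 and 0.43.

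The 5 small subunits of complex III all had a lower mean in AeEM, with a median of -0.21, and none was called by limma. In that fit 2 were lower at an unadjusted p under 0.05, where 9.33% of all tested genes were. Uqcr11, the smallest of the complex, read 6.55, 6.45, 6.70 and 6.57 in AeEM and 6.97, 7.01, 6.77 and 6.86 in AeMM. Its groups were apart by -0.34 (SE 0.08; limma adjusted p = 0.0669). Uqcrb, a quinone-binding subunit, differed by -0.28 (SE 0.11) and Uqcr10, the most abundant nuclear member of the complex at 139 TPM, by -0.19 (SE 0.09). For both the difference was large in replicates 1 and 2 and near 0 in replicates 3 and 4, at -0.56, -0.52 and -0.02 for Uqcrb and -0.36, -0.31 and -0.05 for Uqcr10. Uqcrb also has a copy, Gm2962, at 98.2% identity over 336 bases.

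Summed TPM draws on the same values and weighs abundant genes most, so it is not separate evidence of the division. The core and Rieske proteins of complex III together reached 235.1, 224.0, 270.9 and 225.4 TPM in AeEM and 199.8, 211.9, 191.2 and 195.0 TPM in AeMM, with no overlap. The small subunits reached 470.6, 460.6, 567.9 and 487.4 TPM in AeEM and 633.5, 625.8, 561.0 and 529.5 TPM in AeMM, where AeEM replicate 3 lay above 2 AeMM libraries. The ratio of AeEM to AeMM was 1.18, 1.06 and 1.29 in the 3 sets for the core group and 0.743, 0.736 and 0.968 for the small subunits.

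Complex IV, cytochrome c oxidase, has 14 tested nuclear members, of which 1 was called lower by unpaired limma and 10 had a lower mean in AeEM. Over all tested genes 1.16% were called lower and 51.2% had a lower mean. The called gene was Cox7c, a small subunit of the complex's periphery, at chr13:86044816-86046904 on the minus strand of mm10. Its level was 6.63, 6.68, 6.80 and 6.67 in AeEM and 7.18, 7.07, 6.99 and 7.03 in AeMM. The groups did not overlap, and the difference of -0.37 (SE 0.07), 1.29-fold higher in AeMM, had an adjusted p of 0.0259 by unpaired limma and 0.263 with the sets as a term. The copy Gm10012 matches Cox7c at 99.6% over 233 bases, 32.9% of its longest transcript, so reads from that stretch could be split. The most abundant nuclear member of the complex, Cox8a, averaged 371 TPM and differed by -0.09 (SE 0.08).

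Several subunits of complex IV exist as isoforms made in different tissues, and the ascites macrophages held mainly the widely expressed form. Cox6a1 averaged 251 TPM and its heart and muscle form Cox6a2 5.82 TPM. Cox7a2 averaged 56.1 TPM and its muscle form Cox7a1 1.67 TPM, Cox4i1 343 TPM and Cox4i2 0.0263 TPM. The testis form Cox6b2 stood at 2.35 TPM. Cox6a1 was 7.88, 7.86, 7.98 and 7.80 in AeEM and 8.10, 8.09, 8.02 and 8.07 in AeMM on the log2 scale, a separation of -0.19 (SE 0.06) that was not called (limma adjusted p = 0.122). Its relative AC148174.2 matches it at 92.9% over 496 bases, so reads could be split here too. Cox6a2 spread from 2.04 to 3.81 in AeEM and from 1.32 to 3.16 in AeMM, and its difference was -1.12 for replicate 1, 0.64 for replicate 2 and 1.29 for replicates 3 and 4. Cox7a1, Cox7a2 and Cox6b2 differed by -0.31 (SE 0.20), -0.18 (SE 0.13) and 0.15 (SE 0.31), all with overlapping groups. Cox7a2l, a relative of Cox7a2, differed by 0.03 (SE 0.10), and Cox4i1 by -0.13 (SE 0.08).

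Complex V, the ATP synthase, again divided by role. The F1 sector is the catalytic head in the matrix, and 4 of its 5 subunits had a higher mean in AeEM, with a median of 0.18. Atp5b, the catalytic beta subunit and the most abundant nuclear member of complex V at 338 TPM, read 8.50, 8.52, 8.48 and 8.72 in AeEM and 8.28, 8.28, 8.13 and 8.26 in AeMM. The groups were apart by 0.32 (SE 0.07), 1.25-fold, with a limma adjusted p of 0.0527 that missed the threshold. Atp5d, the delta subunit of the central stalk, read 6.71, 6.64, 6.72 and 6.67 in AeEM and 6.24, 6.32, 6.49 and 6.04 in AeMM. Its AeEM libraries lay within an SD of 0.04 and above every AeMM library, at 0.41 (SE 0.09; limma adjusted p = 0.0595). Atp5a1, the alpha subunit, differed by 0.18, Atp5c1, the gamma subunit, by 0.05 and Atp5e, the epsilon subunit, by -0.11.

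Outside the F1 sector 9 of 11 members had a lower mean in AeEM, with a median of -0.13, and 0 of 11 were called by unpaired limma. In that fit 3 were lower at an unadjusted p under 0.05, where 9.33% of all tested genes were. Atp5mpl and Atp5md, small proteins of the membrane sector, had the lowest differences. Atp5mpl was 5.49, 5.50, 5.58 and 5.61 in AeEM and 5.96, 5.90, 5.81 and 5.77 in AeMM, apart by -0.32 (SE 0.07; limma adjusted p = 0.0565). Atp5md was 4.02, 3.96, 4.24 and 4.08 in AeEM and 4.50, 4.50, 4.27 and 4.30 in AeMM, apart by -0.32 (SE 0.10; limma adjusted p = 0.133). The 3 genes of the c-ring encode the same mature protein with different import signals. Atp5g3 averaged 262 TPM, Atp5g1 62.4 TPM and Atp5g2 14.6 TPM, and their log2 differences were -0.00 (SE 0.12), -0.11 (SE 0.08) and 0.04 (SE 0.09), with overlapping groups.

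Within the F1 sector, Atp5b alone averaged 376 TPM in AeEM and 301 TPM in AeMM. The summed F1 sector was 849.8, 862.4, 916.7 and 913.4 TPM in AeEM and 798.5, 785.6, 769.0 and 717.0 TPM in AeMM. All AeEM libraries lay above all AeMM libraries, and the ratio was 1.06, 1.10 and 1.23 in the 3 sets. The rest of complex V reached 809.5 to 1011.7 TPM in AeEM and 856.3 to 1040.5 TPM in AeMM, with wide overlap. The summed accessory subunits of complex I were 1406.7 to 1735.9 TPM in AeEM and 1592.3 to 1856.8 TPM in AeMM, with ratios of 0.817, 0.758 and 0.966 in the sets, and the core subunits 402.5 to 452.1 TPM and 375.3 to 469.5 TPM. The alternative settings reuse the same 8 libraries, so a kept sign is not separate evidence of a division by role. Under every setting run, the median difference stayed positive for the core and Rieske proteins of complex III (0.29 to 0.45). It also stayed positive for the F1 sector (0.11 to 0.33). It stayed negative for the accessory subunits of complex I (-0.29 to -0.04), the small subunits of complex III (-0.35 to -0.02) and complex V outside F1 (-0.25 to -0.03), and it changed sign for the core subunits of complex I (-0.07 to 0.01).

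**Figure D3:**
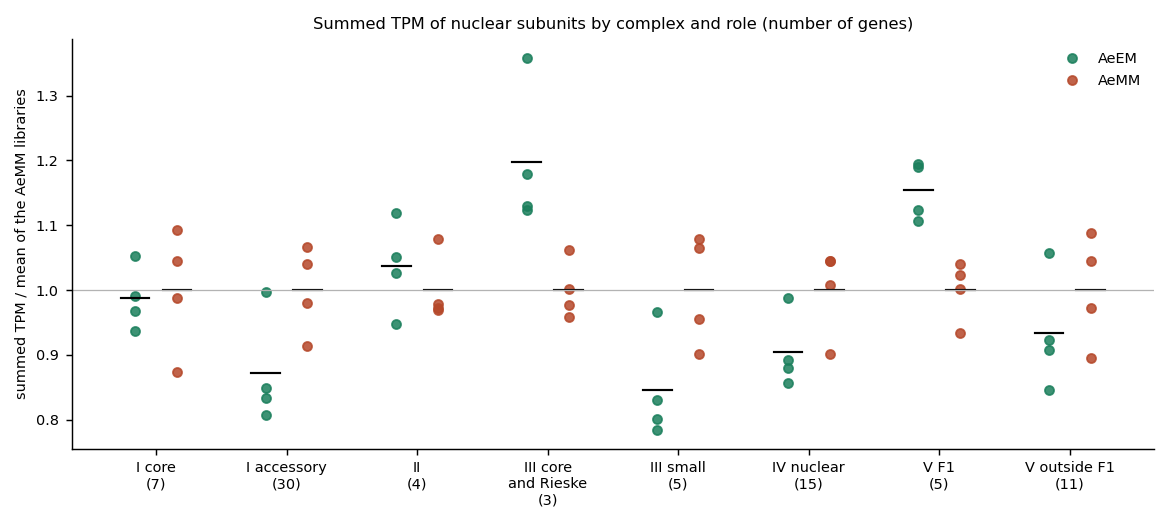
Summed TPM of nuclear subunits, divided by the mean of the 4 AeMM libraries, for 8 groups of genes named on the horizontal axis with the number of genes; points are libraries (AeEM green, AeMM red) and black lines group means. The AeEM points lie above all AeMM points for the core and Rieske proteins of complex III and for the F1 sector of complex V, and overlap them in the other 6 groups.

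The core, Rieske and F1 subunits also have longer transcripts, with a median of 1363 bases over 15 genes against 645 bases over the other 63 nuclear members with a length in GENCODE M21. The 28 nuclear members of up to 600 bases had a median difference of -0.20 (26 negative), and all 302 tested genes of that length had a median of -0.16. Members of 600 to 800 bases had -0.13 (18 genes), beside -0.10 over 397 tested genes. The 7 members of 800 to 1000 bases had -0.07, beside -0.03 over 410 genes, and the 11 of 1000 to 1500 bases -0.03, beside 0.05 over 1182. Among 7 members of 1500 to 2000 bases the median was 0.31 (6 positive), beside 0.07 over 1253 genes. The 7 members of 2000 to 3000 bases did not continue the rise, at -0.11 (4 negative), beside 0.01 over 2086 genes. Across genes, which are not independent replicates, Spearman's rho of the difference with length was 0.48 over 78 nuclear members and -0.07 over 8735 tested genes, and with GC content 0.11 and 0.17. The part of length in the division by role was not tested.

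**Figure D4:**
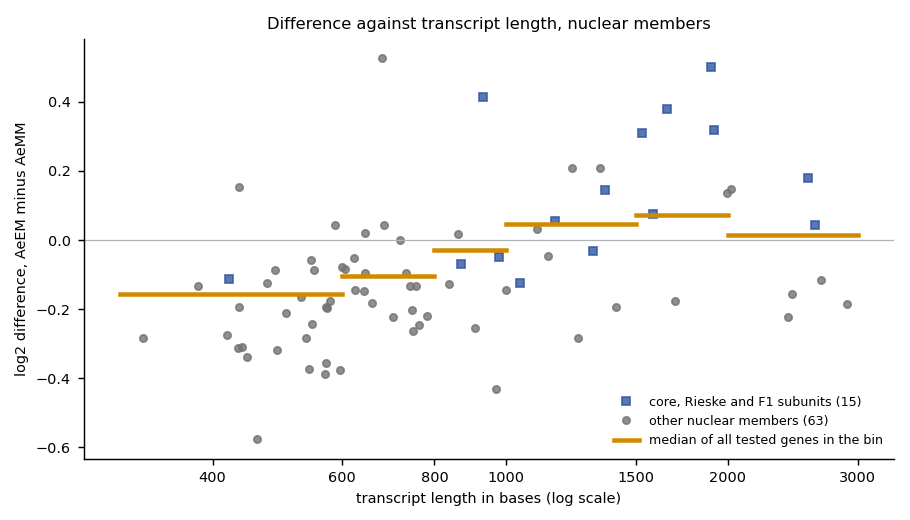
Log2 difference, AeEM minus AeMM, against transcript length in bases on a log axis for the 78 nuclear members with a length, squares for the 15 core, Rieske and F1 subunits and circles for the other 63; horizontal bars give the median of all tested genes in each length bin. Members of up to 600 bases center on -0.20 and the bar of that bin lies at -0.16, while those of 1500 to 2000 bases center on 0.31 against a bar at 0.07. Members of 2000 to 3000 bases center on -0.11 against a bar at 0.01.

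The mitochondrial genome encodes 13 proteins, all of them members, and together they took 9.49% to 10.5% of the TPM in AeEM and 9.86% to 11.0% in AeMM, with overlap. The 80 nuclear members took 0.613% to 0.713% and 0.626% to 0.730%. The levels of the mitochondrial members fell into separate ranges. At the top, mt-Co1, the catalytic subunit of complex IV, averaged 37576 TPM, mt-Nd1 19262, mt-Cytb 14628, mt-Nd4 9953, mt-Nd2 6643, mt-Nd6 6034 and mt-Nd5 4312 TPM. Far below, mt-Co3 averaged 198 TPM, mt-Atp6 141, mt-Co2 89.5, mt-Atp8 18.8, mt-Nd4l 5.82 and mt-Nd3 3.51 TPM, although transcripts of both ranges are cut from the same long precursors.

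The 5 low members mt-Co2, mt-Co3, mt-Atp6, mt-Nd3 and mt-Nd4l each have a copy in the nuclear genome that spans over 90% of the transcript at an identity of at least 99%, side by side on chromosome 1, and mt-Atp8 lies between mt-Co2 and mt-Atp6. No member of the high range has such a copy; mt-Nd4 lies within one over 63.6% of its length, and the best copies of mt-Co1, mt-Cytb, mt-Nd5 and mt-Nd6 match at 97.6%, 92.9%, 92.4% and 93.6%. The part of these copies in the low levels was not tested. Over the whole alignment mt-Nd3 and its copy differ at 1 of 345 bases, and mt-Nd6 and its copy at 33 of 519. The first 60 bases of these 2 members and their copies are shown, with capitals at the bases that differ. In these windows the mt-Nd3 pair (chrM:9459-9518, plus strand, and chr1:24613060-24613119, minus strand, mm10) differs at 1 base. There the mt-Nd6 pair (chrM:14011-14070, minus strand, and chr4:80003855-80003914, minus strand) differs at 2.
mt-Nd3: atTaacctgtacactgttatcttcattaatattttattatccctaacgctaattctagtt
Gm28438: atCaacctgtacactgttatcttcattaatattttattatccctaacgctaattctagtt
mt-Nd6: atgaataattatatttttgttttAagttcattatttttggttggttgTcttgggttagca
Gm11408: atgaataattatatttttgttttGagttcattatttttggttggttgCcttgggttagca

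**Figure D5:**
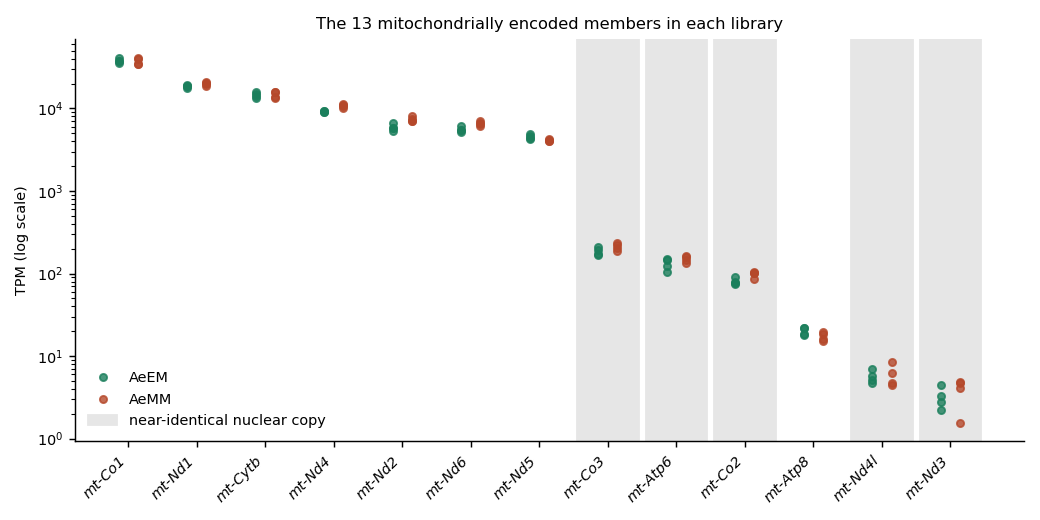
TPM of the 13 mitochondrially encoded members in each library on a log axis, ordered by mean level, AeEM green and AeMM red; gray bands mark the 5 members with a near-identical nuclear copy. The 7 members on the left have means of 4312 TPM or more and the 6 on the right means of 198 TPM or less, and 5 of those 6 carry a gray band.

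Between the groups, 1 of the 13 mitochondrial members was called, lower in AeEM, where 1.16% of all tested genes were called lower. mt-Nd4, a proton-pumping subunit of complex I, read 13.15, 13.17, 13.15 and 13.19 in AeEM and 13.41, 13.38, 13.29 and 13.46 in AeMM. The AeEM libraries lay within an SD of 0.02 and below every AeMM library, at -0.22 (SE 0.05), 1.16-fold higher in AeMM, with an adjusted p of 0.0460 by unpaired limma and 0.319 with the sets as a term. The neighboring subunit mt-Nd2 read 12.51, 12.39, 12.49 and 12.69 in AeEM and 12.87, 12.97, 12.76 and 12.80 in AeMM. Its groups were apart by -0.33 (SE 0.07), with a limma adjusted p of 0.0524. mt-Nd6, the 1 member read from the other strand, differed by -0.24 (SE 0.07; limma adjusted p = 0.0965), and since Smart-seq2 does not keep strand its reads cannot be told from antisense of its neighbors.

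Among the other mitochondrial subunits of complex I, mt-Nd5 had a higher mean in AeEM. Its level was 12.09, 12.17, 12.07 and 12.24 in AeEM and 12.01, 11.97, 12.04 and 11.98 in AeMM, without overlap and with a difference of 0.14 (SE 0.05; limma adjusted p = 0.175) that turned to -0.15 under quantile scaling. mt-Nd1 differed by -0.11 (SE 0.05; limma adjusted p = 0.291), and under quantile scaling by 0.10. The other 2 abundant members did not separate, with mt-Co1 at 15.10 to 15.33 in AeEM and 15.05 to 15.32 in AeMM and mt-Cytb at 13.72 to 13.96 and 13.71 to 13.95. Their differences were 0.03 (SE 0.08) and 0.00 (SE 0.08). Among the low members mt-Co2 differed by -0.29 (SE 0.09), mt-Atp6 by -0.22 (SE 0.12), mt-Co3 by -0.19 (SE 0.09), mt-Nd3 by -0.14 (SE 0.28), mt-Nd4l by -0.04 (SE 0.19) and mt-Atp8, a subunit of the proton channel, by 0.21 (SE 0.11), all with overlapping groups. Without the 5 members with a near-identical copy and mt-Atp8, the mitochondrial median was -0.11.

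The summed mitochondrial subunits of complex I lay at 42148 to 45989 TPM in AeEM and 46497 to 50180 TPM in AeMM, without overlap, at ratios of 0.840, 0.873 and 0.940 in the sets. Those of complex IV overlapped widely, at 35387 to 41360 TPM and 34308 to 41334 TPM.

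The 80 nuclear members are thought to share transcription factors, NRF1 among them, so their promoters were read. RefSeq windows of 250 bases before to 50 after the start (GRCm38.p6) were matched for 66 of the 80. The NRF1 palindrome, whose 10 letters are the capitals in the sequences below and which was searched on both strands, stood in 5 of them (7.58%), in 2.64% of 6893 tested genes with a window and in 0.971% of all 32851 windows. The 5 genes are shown with the palindrome in capitals, at chr5:108434415-108434474 (minus strand) for Atp5k, chr5:115349086-115349145 (minus) for Cox6a1, chr9:108936668-108936697 (plus) for Uqcrc1, chr15:102671055-102671114 (minus) for Atp5g2 and chr17:56717677-56717736 (plus) for Ndufa11.
Atp5k: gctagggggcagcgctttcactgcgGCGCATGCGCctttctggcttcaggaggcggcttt
Cox6a1: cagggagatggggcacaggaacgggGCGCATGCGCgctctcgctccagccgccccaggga
Uqcrc1: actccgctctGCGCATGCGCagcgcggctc
Atp5g2: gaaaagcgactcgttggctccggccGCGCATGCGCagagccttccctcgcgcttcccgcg
Ndufa11: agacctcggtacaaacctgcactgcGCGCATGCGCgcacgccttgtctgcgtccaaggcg

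The 5 genes did not share a direction, with log2 differences of -0.28 for Atp5k, -0.19 for Cox6a1, 0.38 for Uqcrc1, 0.04 for Atp5g2 and -0.24 for Ndufa11. The shorter NRF1 core GCATGCGC, which lies inside the palindrome, stood in 10 of the 66 windows (15.2%, against 6.72% of tested genes), and the YY1 motif AANATGGCG also in 10 (15.2% against 6.96%). The ETS motif CCGGAAG stood in 25.8% against 23.6%, the GC box GGGCGG in 40.9% against 68.5%, CCAAT in 43.9% against 42.8% and TATAAA in 9.09% against 8.50%, all on both strands.

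Among 144 other genes of the pathway in 11 lists, 118 were tested and 5 were called by unpaired limma, 3 higher and 2 lower in AeEM, where 1.25% and 1.16% of all tested genes were called (2.41% in either direction). With the sets as a term 0 were called and 14 had an unadjusted p under 0.05, where 9.64% of all tested genes did, and 0 were called with the replicate block. The called genes were assembly and import factors. Sco2, which delivers copper to complex IV, read 2.57, 2.56, 2.47 and 2.69 in AeEM and 1.40, 1.48, 1.66 and 1.29 in AeMM. It was higher in every AeEM library, by 1.11 (SE 0.12), 2.16-fold on the log2(TPM + 1) scale, with an adjusted p of 0.00294 by unpaired limma and 0.0605 with the sets as a term. Acad9, which helps assemble complex I, was higher by 0.61 (SE 0.12, limma adjusted p = 0.0303, or 0.314 with the sets). Its level was 1.65 to 1.91 TPM in AeEM and 0.654 to 0.997 TPM in AeMM. It thus passed the filter of 1 TPM only through the group where it was high, and its call carries little weight. Timm50, a receptor of the inner membrane import channel, was higher by 0.58 (SE 0.12, limma adjusted p = 0.0453, or 0.274 with the sets). Cox14, an early complex IV assembly factor, was lower, with a difference of -0.39 (SE 0.07; limma adjusted p = 0.0222, 0.254 with the sets), and Uqcc3, a complex III assembly factor, was lower at -0.34 (SE 0.07; limma adjusted p = 0.0484, 0.318 with the sets).

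By list, the 13 tested electron carriers and genes of ubiquinone synthesis all had a higher mean in AeEM, with a median of 0.16 and 0 called by limma (3 had an unadjusted p under 0.05, where 18% of all tested genes did), from Etfa at 0.07 (SE 0.14) to Coq9 at 0.62 (SE 0.13). The list of the tricarboxylic acid cycle also held genes of pyruvate entry (Mpc1, Mpc2, Pdha1, Pdhb and Dlat). Of its 17 tested genes 15 had a higher mean in AeEM, with a median of 0.09 and 0 called (3 had an unadjusted p under 0.05). The 2 lower were Mpc2 and Pdha1, both of pyruvate entry. Differences ran from Mpc2 at -0.18 (SE 0.12) to Idh3a, a subunit of isocitrate dehydrogenase, at 0.65 (SE 0.18). The summed level of this list was 470 to 505 TPM in AeEM and 421 to 428 TPM in AeMM, without overlap. Assembly factors of complex I had a median of -0.07 (13 tested). The 1 called higher was Acad9, which passed the filter only through AeEM. The median was 0.07 for complex II (3 tested) and -0.21 for complex III (4 tested, 1 called lower). It was 0.05 for complex IV (19 tested, 1 called in each direction) and 0.05 for complex V (4 tested). Over all tested genes 1.25% were called higher and 1.16% lower.

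The remaining lists held 1 call. The 7 adenine nucleotide and phosphate carriers, porins and uncoupling protein had a median of 0.06 and lay between Vdac2 at -0.00 and Slc25a4, an exchanger of ADP and ATP, at 0.29 (SE 0.11). Mitochondrial genome expression had a median of 0.01 over 12 genes, from Polg2 at -0.58 (SE 0.22) to Mterf4 at 0.21 (SE 0.20), and regulators of mitochondrial biogenesis 0.03 over 6 genes, from Esrra at -0.15 (SE 0.25) to Pprc1 at 0.34 (SE 0.20). The 20 genes of protein import had a median of -0.07, with Tomm7 the lowest at -0.32 (SE 0.09). Of these 1 was called higher, where 1.25% of all tested genes were. Among the assembly factors the ends of the lists not yet given were Tmem70 at -0.34, Sdhaf4 at -0.17 and Sdhaf1 at 0.26, Uqcc2 at -0.37 and Bcs1l at 0.48, and Atpaf1 at -0.20 and Atpaf2 at 0.21, none of them called.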

How the data were processed

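The authors deposited 1 table of log2 values, log2(TPM + 1), for 8 Smart-seq2 libraries (oligo-dT primed, no strand kept). Per the study's methods and processing notes, reads were cleaned with fastp, mapped to mm10 with STAR 2.7.2a and counted with featureCounts (Subread). How TPM, the log and the adjustment between sets were made, and which annotation was used, is not given in the sources used here. The adjustment was read from the values: the 3 set means differed by a median of 0.0102 on the log2 scale, against a range of 0.65 over the 8 libraries.

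AeEM minus AeMM was fitted with limma 3.58.1 (R 4.3.3), unpaired as in the study's statistics section, with a mean-variance trend, and tested on simulated data. Genes averaging 1 TPM or more entered. Named members were all those called, the 2 highest and 2 lowest differences in each complex, the most abundant nuclear member of each complex, all mitochondrial members and listed isoforms; from other lists, those called and both ends. Members outside this rule (Ndufs1, Uqcrfs1, Atp5a1, Atp5c1, Atp5e, Atp5k and Ndufa11) and those listed only as separated were named after their values were seen. Members and lists were chosen with earlier results of these data known. Copies were found with blastn 2.17.0 in GENCODE M21 transcripts. Positions came from GENCODE M21; Atp5md had none there. Transcript length is the median over a gene's coding transcripts in the basic set. Alternatives changed the pseudocount, filter, scaling, trend, library weights and blocks, and left out each library; those for other pathway genes and for groups by role were added after seeing the data.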

Additional observations from a re-analysis of the deposited data

Results flagged for a closer look

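Of 98 groups of 4 libraries examined among the named members and the summed levels, 10 held a library whose gap to the nearest of the others was large for the range of the group; chance gives about 1 in 20. On the log2(TPM + 1) scale, Atp5b was 8.72 in AeEM replicate 4 (others 8.48 to 8.52) and 8.13 in AeMM replicate 3 (others 8.26 to 8.28), values that lie away from the other group in both cases. Ndufa9 was 4.20 in AeEM replicate 3 (others 3.92 to 3.94) and 3.58 in AeMM replicate 4 (others 3.85 to 3.86), so that most of its difference came from these libraries. Cox8a was 8.35 in AeMM replicate 4 (others 8.64 to 8.67), mt-Nd1 14.09 in AeEM replicate 1 (others 14.20 to 14.22) and Uqcr10 7.24 in AeEM replicate 3 (others 6.93 to 6.96). mt-Nd3 was 1.36 in AeMM replicate 3 (others 2.36 to 2.55). Sdha was 5.20 in AeMM replicate 2 (others 5.01 to 5.03), and in the same library the summed complex II genes reached 215.1 TPM (others 193.3 to 195.1 TPM).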

How the results depend on the processing

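Calls depended on the fit more than differences did. Members called higher in AeEM numbered 1 in the unpaired fit, 3 with a filter of 5 TPM, 3 with quantile scaling, 4 with median-of-ratios scaling, 6 with array weights, and 0 with the replicate block, with the 3 sets as a term and in replicates 3 and 4 only. Leaving out 1 library gave 0 to 2. Members called lower numbered 4, and then 7 with a filter of 5 TPM, 7 with quantile scaling, 7 with median-of-ratios scaling, 1 without the trend, 41 with array weights (15.6% of all tested genes were then called), and 0 with the block, the sets or replicates 3 and 4 only. Leaving out 1 library gave 0 to 4. Calls over all genes tested in each fit moved too, from 2.41% in the unpaired fit. They were 4.6% with a filter of 5 TPM, 3.15% with quantile scaling, 2.99% with median-of-ratios scaling and 1.55% without the trend. With 1 library left out they were at most 2.31%. In replicates 3 and 4 only, 0 of all tested genes were called, so the 0 there is not particular to the members. Other genes of the pathway called numbered 5, and then 2 without the trend, 25 with array weights, 0 with the block, the sets or replicates 3 and 4 only, and 1 to 5 with 1 library left out. The median of the nuclear members was -0.13, moved to -0.014 in replicates 3 and 4 only and to -0.23 with array weights, and lay between -0.19 and -0.09 with 1 library left out; that of the mitochondrial members lay between -0.23 and -0.0895. The pseudocount, the absence of a filter and scaling without mitochondrial and ribosomal protein genes left all these counts within 1.5 times, and the cause of the other shifts was not tested.

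No source used here says that equal replicate numbers mark the same mouse or run. Their deviations correlated at -0.992, -0.999, -0.20 and -0.13 over genes, which the adjustment between sets itself imposes in part, so pairing could not be checked; with the number as a block 5 genes of 8801 and 0 members were called.

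Signs changed only for members that were not called. In replicates 3 and 4 only the log2 difference was -0.014 for Atp5g2, 0.28 for Atp5g3, -0.25 for Cox6b2, 0.14 for Cox7a1, 0.13 for Cox7a2, 0.0571 for Cox8a, -0.0031 for mt-Cytb, 0.35 for mt-Nd3, 0.0796 for Ndufb10 and 0.0052 for Sdhb. Atp5g3 was 0.0213 with quantile and 0.0208 with median-of-ratios scaling, mt-Nd1 0.10 and mt-Nd5 -0.15 with quantile scaling, mt-Cytb -0.0066 when scaled without mitochondrial and ribosomal protein genes, and with array weights Cox6a2 was -0.0133 and mt-Nd4l 0.0681. With 1 library left out, Atp5g3 ranged from -0.0778 to 0.0665, Cox7a2l from -0.0223 to 0.0844, mt-Co1 from -0.015 to 0.0746, mt-Cytb from -0.0363 to 0.045, mt-Nd4l from -0.15 to 0.12 and Sdhb from -0.12 to 0.0038. Depth is unknown, so precision rests on 4 libraries per group.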
